A study of Mus musculus with 12 samples.

Results

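MBD2 peaks of C2C12 cells at day 1 of differentiation were set beside the H3K4me3 peaks of the same day. C2C12 is a mouse myoblast line that withdraws from the cell cycle and fuses into myotubes in low serum. The assay was CUT&RUN: an antibody bound to its target directs a nuclease that releases the DNA around it for sequencing. The members were 425 MBD2 peaks and 17653 H3K4me3 peaks on chromosomes 1 to 19 and X, of 15674 MBD2 and 78793 H3K4me3 peaks chosen in the same way over all 4 cell states. The day 1 lists as deposited held 470 and 17681 peaks. An MBD2 peak was taken where its local background, (pileup + 1)/fold − 1, was at most 10 fragments per base. The member with the highest background had 6.41 (fold 6.48), and the peak with the lowest background above the limit had 13.8 (fold 4.86). The series holds 12 samples, with 1 library per antibody (MBD2, H3K4me3 or IgG) in each of 4 states. These are cells at day 0, cells at day 1, and at day 5 the fused myotubes and, apart from them, the unfused reserve cells. The labels name no genotype or agent for any sample beyond C2C12 itself and medium with 2% horse serum for differentiation. Trypsin parted the myotubes from the reserve cells, per the series' design text. All samples come from this 1 established line, and none from muscle tissue. No difference below has a replicate check, and intervals are exact Clopper-Pearson 95% intervals that cover counting error only.

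MBD2 is a methyl-CpG binding protein and a subunit of the NuRD complex, which removes histone acetylation and moves nucleosomes. H3K4me3 is placed on nucleosomes around the starts of active and poised genes, mostly in CpG islands, whose CpGs are usually unmethylated. The methyl-CpG domain of MBD2 prefers methylated CpGs, so methylated DNA and H3K4me3 nucleosomes are usually thought of as separate places. The letters CCAAT, found upstream of many starts, are known to be bound by NF-Y, a trimeric activator. AP-1, the Fos and Jun dimer, binds TGANTCA, and MyoD and myogenin bind the E-box CAGCTG.

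The 160 bp around the MBD2 summit are shown for the strongest promoter peaks with H3K4me3, the strongest named promoter peak without it, and the strongest peaks elsewhere with and without it, in mm10. Capitals mark CCAAT, or ATTGG where it lies on the other strand.
Srgap2 and Fam72a, promoter with H3K4me3 (chr1:131527567-131527726, + strand): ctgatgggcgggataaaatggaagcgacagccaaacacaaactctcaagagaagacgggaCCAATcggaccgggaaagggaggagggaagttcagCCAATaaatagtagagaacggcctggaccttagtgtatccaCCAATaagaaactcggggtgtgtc
Mylpf and Tbc1d10b, promoter with H3K4me3 (chr7:127208834-127208993, + strand): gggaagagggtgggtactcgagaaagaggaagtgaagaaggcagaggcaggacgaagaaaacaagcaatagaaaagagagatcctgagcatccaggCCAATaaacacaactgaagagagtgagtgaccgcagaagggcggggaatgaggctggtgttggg
Sp2, promoter with H3K4me3 (chr11:96977859-96978018, + strand): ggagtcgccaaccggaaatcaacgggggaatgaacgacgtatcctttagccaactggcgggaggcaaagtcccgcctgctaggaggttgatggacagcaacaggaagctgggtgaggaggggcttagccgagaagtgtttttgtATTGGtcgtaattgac
Tubb4b, promoter with H3K4me3 (chr2:25224785-25224944, + strand): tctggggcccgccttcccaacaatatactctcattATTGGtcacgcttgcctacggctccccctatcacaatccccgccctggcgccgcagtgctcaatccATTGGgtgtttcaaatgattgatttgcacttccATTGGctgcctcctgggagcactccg
Tomm40, promoter with H3K4me3 (chr7:19715595-19715754, + strand): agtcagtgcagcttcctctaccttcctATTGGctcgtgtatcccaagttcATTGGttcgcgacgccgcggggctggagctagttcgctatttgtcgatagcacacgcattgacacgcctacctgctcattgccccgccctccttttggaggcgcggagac
Rcan2, promoter without H3K4me3 (chr17:44026609-44026768, + strand): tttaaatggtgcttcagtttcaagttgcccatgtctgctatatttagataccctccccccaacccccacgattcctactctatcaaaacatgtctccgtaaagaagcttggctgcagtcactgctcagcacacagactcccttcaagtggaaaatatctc
intergenic, Nfe2l3 the nearest coding gene, with H3K4me3 (chr6:51173111-51173270, + strand): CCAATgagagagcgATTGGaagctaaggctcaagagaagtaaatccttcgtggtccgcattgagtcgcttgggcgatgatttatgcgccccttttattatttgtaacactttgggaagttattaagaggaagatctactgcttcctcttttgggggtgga
intergenic, Dusp4 the nearest coding gene, without H3K4me3 (chr8:34511534-34511693, + strand): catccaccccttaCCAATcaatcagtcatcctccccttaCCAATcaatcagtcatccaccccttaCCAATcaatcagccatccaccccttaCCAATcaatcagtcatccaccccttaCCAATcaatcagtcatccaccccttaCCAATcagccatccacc
intergenic, Slc1a3 the nearest coding gene, without H3K4me3 (chr15:8806474-8806633, + strand): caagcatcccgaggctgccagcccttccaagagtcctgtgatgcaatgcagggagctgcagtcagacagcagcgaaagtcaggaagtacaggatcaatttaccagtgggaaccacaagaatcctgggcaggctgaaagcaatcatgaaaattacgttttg
The windows at Srgap2 and Tubb4b hold 3 CCAAT boxes each, that at Tomm40 holds 2, and those at Mylpf and Sp2 hold 1 each. The intergenic window labelled Dusp4, at −295683 bp from that gene, is a tandem repeat that holds 6 CCAAT boxes and no CpG. The windows at Rcan2 and labelled Slc1a3 hold no CCAAT box.

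The MBD2 list of day 1 rests on few fragments. Pileup at the summit ran from 5 to 94 fragments with a median of 8, fold from 4.26 to 56.7 with a median of 6.67, and width from 185 to 1741 bp with a median of 279 bp. The local background was 0.286 fragments per base at its lowest in the MBD2 list and 1.25 in that of H3K4me3, which stands in for the depth. Peaks of equal pileup on this background share a fold, so many peaks tie at 6.22. As a check of the label, H3K4me3 lay at the promoters of 9 of 9 myoblast and myocyte marker genes, among them Myod1, Myog, Des and Mymk. It lay at 3 of 5 neuron markers (Syt1, Tubb3 and Nefl), 1 of 5 blood markers (Tal1), 0 of 4 hepatocyte and 0 of 4 epithelium markers. Over all 21755 protein-coding genes, 12335 had H3K4me3 at the promoter. No marker gene carried MBD2, which lay at 211 of all protein-coding genes.

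Most day 1 MBD2 peaks lay on H3K4me3, and those at promoters nearly always did. An H3K4me3 peak overlapped 274 of 425 MBD2 peaks, 64.5% (59.7 to 69.02). At promoters, within 1 kb of an annotated start, the share was 192 of 207 peaks, 92.8% (88.3 to 95.9). Elsewhere it was 82 of 218 peaks, 37.6% (31.2 to 44.4). H3K4me3 peaks covered 36.1 Mb, 1.37% of the bases of these chromosomes, and 62.5% of the bases inside MBD2 peaks. Of the 274 peaks, 226 lay wholly inside an H3K4me3 peak and 48 in part. Promoters held 70.1% of the MBD2 peaks with H3K4me3 (64.3 to 75.4), against 9.93% of those without it (5.67 to 15.9). The reverse overlap was small, since 271 of 17653 H3K4me3 peaks, 1.54%, held MBD2.

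The share with H3K4me3 was highest among the strongest MBD2 peaks, and the promoter class reached the highest folds. In 5 equal groups by MBD2 fold, from weakest to strongest, 56.5%, 55.3%, 52.9%, 71.8% and 85.9% of 85 peaks overlapped H3K4me3. The share at promoters over the same groups was 36.5%, 35.3%, 32.9%, 56.5% and 82.4%, so position moved with strength. At promoters the median fold was 7.77 with H3K4me3 (lowest 4.49, highest 56.7), against 6.73 without it (4.66 to 12.3). Elsewhere the median fold was 6.22 with H3K4me3 (4.26 to 22.5) and 6.22 without it (4.37 to 19.7). Away from promoters the classes therefore overlapped over nearly their whole range. Their median widths were 293.5 bp with H3K4me3, against 239.5 bp without it.

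**Figure D1:**
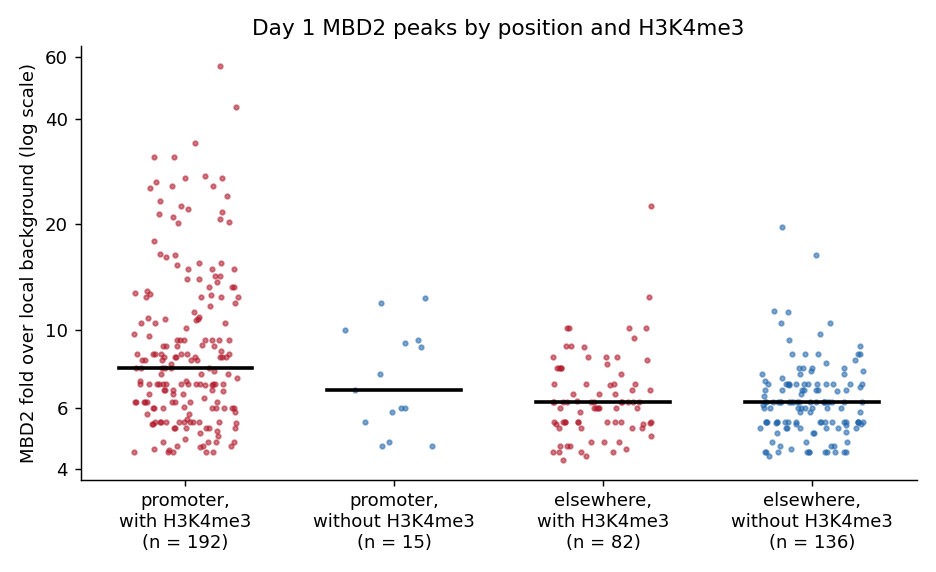
MBD2 fold over the local background (log axis) of each day 1 MBD2 peak, by position and by overlap with H3K4me3; each point is a peak and each bar the median of its class. Of the 23 peaks with fold above 20, 22 are promoter peaks with H3K4me3 and 1 lies elsewhere with H3K4me3, and away from promoters both classes have a median of 6.22.

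The strongest promoters with H3K4me3 included genes of muscle, cytoskeleton, mitochondria and transcription. The leading peak, shared by the divergent starts of Fam72a and of Srgap2, which shapes membranes and actin, was chr1:131527116-131527908 with 94 fragments and fold 56.7. Its summit lay at −300 bp from the start of Srgap2, upstream of it, inside an H3K4me3 peak of 6306 bp and fold 124. The next peak, chr7:127208760-127209266 with fold 43.4, had its summit 15 bp downstream of a start of Mylpf, a light chain of the myosin of fast muscle fibres, and at −446 bp from Tbc1d10b. The H3K4me3 peak there was 8248 bp wide. Sp2, a zinc finger factor of the Sp family, followed with fold 34.2, its summit at −228 bp. Tubb4b, a β-tubulin, and Tomm40, the import pore of mitochondria, had 31.1 each at −163 and −237 bp. Rnf5, a ubiquitin ligase of the endoplasmic reticulum, had 27.5, Slc25a42, a mitochondrial carrier of coenzyme A, 27.2, and Sin3a, a scaffold of histone deacetylase complexes, 27.2. For all 10 genes H3K4me3 was strong, with folds between 42.5 and 124.

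Genes at MBD2 peaks were nearly all genes with H3K4me3. MBD2 lay at the promoters of 281 genes, 0.522% of 53843 annotated genes, and at 264 of them the peak itself overlapped H3K4me3, while at 17 it did not. Protein-coding genes made up 207 of the 264 and 4 of the 17, beside 21755 of the 53843 annotated genes. Over all annotated genes 29% had H3K4me3 at the promoter, and of those 15607 genes 271, 1.74%, had MBD2. Among protein-coding genes, H3K4me3 lay at the promoters of 12335 of 21755, and of 209 of the 211 with MBD2. Of the small nuclear RNA genes with H3K4me3, 12 of 84 had MBD2, 14.3% (7.61 to 23.6), against 209 of 12335 protein-coding genes, 1.69% (1.47 to 1.94). Over all annotated genes the shares were 15 of 1382 small nuclear RNA genes, 1.09% (0.609 to 1.78), against 211 of 21755 protein-coding genes, 0.970% (0.844 to 1.11), with intervals that overlap. This biotype was singled out after its values were seen. Its members include Rnu12, the U12 RNA of the minor spliceosome, with fold 7.77. Several of these genes neighbour each other, and reads of near-identical copies can be placed at the wrong copy, so their calls are uncertain.

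The 17 genes without H3K4me3 at the MBD2 peak numbered 10 with a promoter window of 500 bp and 34 with no background limit. The strongest named gene was Rcan2, a regulator of calcineurin, with fold 12.3 at chr17:44026318-44026875 and a summit at −21 bp from a start within its own body. An H3K4me3 peak of 1873 bp reached a promoter window of the gene without touching the MBD2 peak. Rnu3b1, a U3 nucleolar RNA, had 10.01, Rnu1a1, a U1 RNA, 8.96, Olfr769, an olfactory receptor, 7.48, Rnu5g, a U5 RNA, 5.98, Deptor, an inhibitor of mTOR, 5.44, and Rnu2-10, a U2 RNA, 4.78. The other 9 are predicted models. Of the 17, 7 are small nuclear or nucleolar RNA genes, at 5 peaks, beside 14 of the 264 genes with H3K4me3. Over all 53843 annotated genes, 2889 are of these kinds. At Deptor, Rnu1a1 and Rnu3b1, H3K4me3 peaks of 2559, 713 and 552 bp reached a promoter window of the gene without touching the MBD2 peak.

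Away from promoters, the leading peak with H3K4me3 was chr6:51173028-51173486, with fold 22.5, in the H3K4me3 peak of 4973 bp whose MBD2 window is printed above. It lay 96719 bp from Mir148a, the nearest annotated start. An intron of Trio, a guanine nucleotide exchange factor, followed with fold 12.4 at chr15:27782903-27783257, in H3K4me3 of fold 7.47. Peaks of fold 10.1 lay at −12673 bp from the start of Mif, a cytokine, at −1395 bp from Purb, a single-stranded nucleic acid binding protein, inside an H3K4me3 peak of 9650 bp, and at −64122 bp from Slc6a6, the taurine transporter. The H3K4me3 at these 82 sites was mostly narrow and weak, with a median width of 945 bp and a median fold of 9.29. At the 192 promoter peaks these were 3048.5 bp and 62.3.

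The 136 peaks away from promoters and without H3K4me3 lay mostly between genes (69) or in introns (65). The strongest was the tandem repeat printed above, chr8:34511445-34513185, with fold 19.7 over 1741 bp. Its summit lay at −295683 bp from Dusp4, the nearest coding gene, and 4407 bp from the predicted model Gm8268, the nearest annotated start. Next came chr15:8806145-8807033 with fold 16.4, at −95790 bp from Slc1a3, a glutamate transporter. Introns of the predicted gene 1700012B07Rik (11.3) and of Rin3 (11.2), a Rab5 exchange factor, followed, then a site at −76234 bp from Col5a1, a fibrillar collagen (10.5). Few of these sites lay near the edge of an H3K4me3 peak. Over all 151 peaks without H3K4me3 the nearest H3K4me3 peak lay a median of 36138 bp away, within 1 kb for 13 and over 50 kb for 66.

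Within the H3K4me3 peak, MBD2 did not sit on the H3K4me3 summit at promoters. The MBD2 summit lay inside the H3K4me3 peak for 258 of 274 pairs, 94.2% (90.7 to 96.6), and in the middle 50% of its width for 59.1% (53.0 to 65.0). At promoters the MBD2 and H3K4me3 summits were a median of 620.5 bp apart, and 22 of 192 pairs, 11.5%, were within 150 bp. Elsewhere they were a median of 238 bp apart, and 36 of 82, 43.9%, were within 150 bp. The H3K4me3 peaks elsewhere were narrower, as given above, which limits how far apart the summits can be.

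Relative to the start, the median summit positions of MBD2 and H3K4me3 lay on opposite sides. For the 171 MBD2 summits with H3K4me3 within 1 kb of a protein-coding start, the median position was −180 bp, upstream, and 129, 75.4% (68.3 to 81.7), were upstream. The H3K4me3 summits at the same starts had a median of 263 bp downstream, and 133 of 171, 77.8%, were downstream. In the stretch 50 to 400 bp upstream lay 100 MBD2 summits, 58.5%, and 5 H3K4me3 summits, 2.92%. H3K4me3 peaks without MBD2 had a median of 238 bp downstream over 10539 summits, with 9.95% in that stretch. Those were measured from the start nearest the H3K4me3 summit, and only summits within 1 kb were kept. The 171 H3K4me3 summits were measured from the start nearest the MBD2 summit, with no such limit. Their values are therefore not directly comparable with those of peaks without MBD2. A second protein-coding start on the other strand, in divergent orientation, was found at 29 of the 171 MBD2 summits, 17.0% (11.7 to 23.4). It was found at 22 of 168 H3K4me3 summits of peaks with MBD2, 13.1% (8.39 to 19.2), against 779 of 10539 of those without MBD2, 7.39% (6.90 to 7.91).

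**Figure D2:**
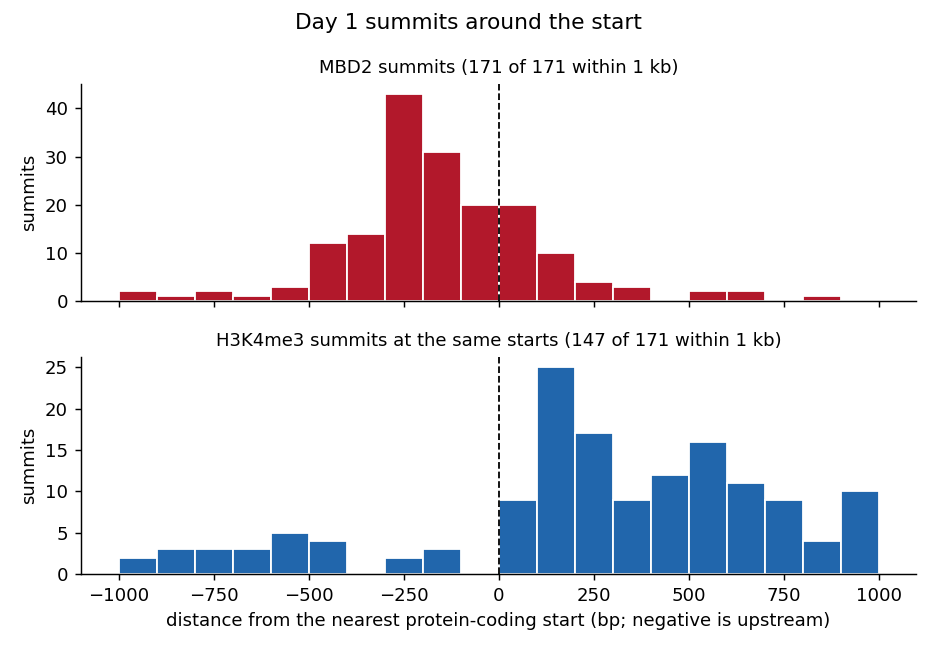
Number of MBD2 summits (top) and of H3K4me3 summits (bottom) in 100 bp bins of distance from the same 171 protein-coding starts at day 1, with the start at the dashed line. MBD2 summits have a median of −180 bp, upstream, and H3K4me3 summits a median of 263 bp downstream. The 24 H3K4me3 summits beyond 1 kb, on either side of the start, are not drawn. Of all 171 H3K4me3 summits 38 lie upstream, and of the 147 within 1 kb 25 do.

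Among the MBD2 classes, median CpG density was highest in the promoter peaks with H3K4me3, with overlapping ranges. In the 300 bp at the summit, promoter peaks with H3K4me3 had a median of 4.67 CpGs per 100 bp (0.333 to 12), against 1.00 for promoter peaks without it (0.333 to 2.67). Elsewhere the medians were 1.5 with H3K4me3 (0 to 10.7) and 0.667 without it (0 to 6.67). No CpG at all was found in 0 of 192, 0 of 15, 4 of 82 and 15 of 136 of these windows in the same order. For 0 of 192 the exact upper limit is 1.90%. The H3K4me3 promoter summits without MBD2 had a median of 5.33 CpGs per 100 bp. In RefSeq promoters, defined below, the median was 6.33 with H3K4me3 and MBD2, against 7.33 with H3K4me3 and no MBD2. DNA methylation was not measured in the samples used here.

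Of the 13 motifs searched, CCAAT differed most in percentage points between promoter MBD2 peaks with H3K4me3 and promoter H3K4me3 summits without MBD2. Such a ranking favours short, common motifs. As a ratio the motif of ZNF143 differed more, at 3.65% (7 of 192 windows) against 0.773%. Of the windows of promoter MBD2 peaks with H3K4me3, 139 of 192, 72.4% (65.5 to 78.6), held CCAAT, and 102, 53.1%, held 2 or more. Promoter H3K4me3 summits without MBD2 held it in 23.9% and 2 or more in 3.60%. Those windows lie on the other side of the start, so the RefSeq promoters, from 250 bp before to 50 bp after a start in GRCm38.p6, were compared as well. CCAAT lay in 147 of 176 promoters with H3K4me3 and MBD2, 83.5% (77.2 to 88.7), against 36.9% of 12840 with H3K4me3 and no MBD2, and 37.6% of all 32619. At least 2 lay in 69.3% (61.9 to 76.0) of those with H3K4me3 and MBD2, against 13.9% (13.3 to 14.5) of those with H3K4me3 and no MBD2. The shares also differed at like CpG density, except at the lowest. It was 86.6% against 43.4% of promoters with 3 to 6 CpGs per 100 bp, 84.9% against 39.6% with 6 to 9, and 89.3% against 28.7% with 9 or more. Below 3 CpGs per 100 bp, 2 of 8 promoters with both held CCAAT, against 42.3% of 1465 without MBD2.

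CCAAT lay on either side of the MBD2 summit, and windows with more matches had higher median MBD2 folds. Among the promoter peaks with H3K4me3 that had a match within 500 bp, the nearest lay a median of 66 bp from the summit, against 195 bp for H3K4me3 promoter summits without MBD2. Neighbouring matches in 1 window were a median of 50.5 bp apart (quartiles 34 and 86). The median MBD2 fold was 6.22 with no match (53 peaks), 6.73 with 1 (37 peaks), 8.31 with 2 (28 peaks) and 10.3 with 3 or more (74 peaks). All of the 20 strongest of these peaks held CCAAT, and 18 of them held 2 or more. Peaks with no match reached a fold of at most 16.1. These folds overlap widely between the groups, as the plot of fold by number of matches shows.

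**Figure D3:**
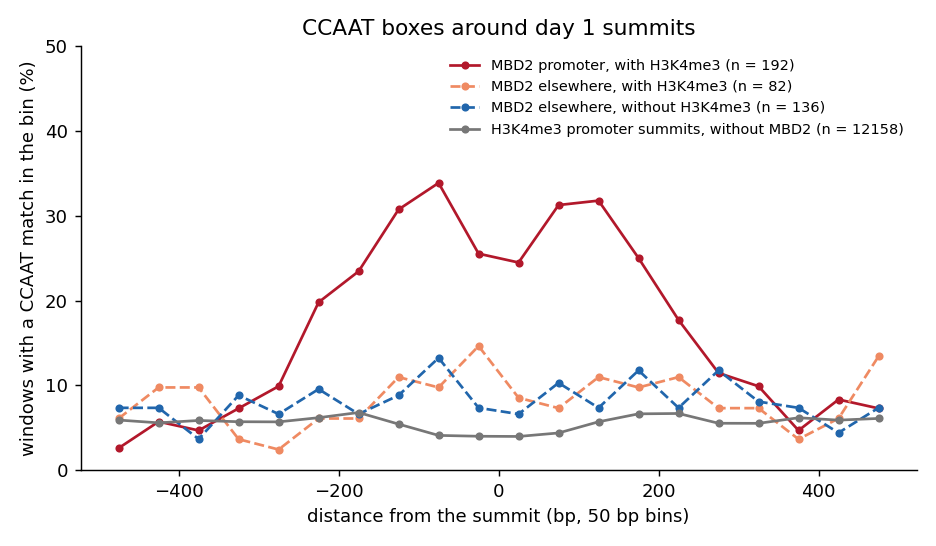
Share of windows with a CCAAT match in each 50 bp bin of distance from the summit, for day 1 MBD2 peaks of 3 classes and for promoter H3K4me3 summits without MBD2. The share at promoter MBD2 peaks with H3K4me3 reaches 33.9% in the bin centred 75 bp to the left of the summit, and that at H3K4me3 summits without MBD2 is 4.10% there.

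**Figure D4:**
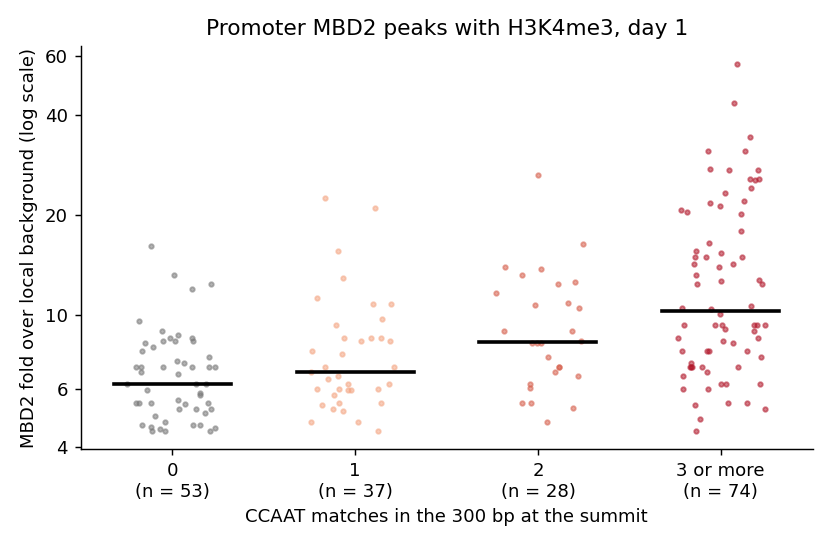
MBD2 fold over the local background (log axis) of the 192 promoter peaks with H3K4me3 at day 1, by the number of CCAAT matches in the 300 bp at the summit; points are peaks and bars medians. The medians are 6.22, 6.73, 8.31 and 10.3 for 0, 1, 2 and 3 or more matches.

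Away from promoters, CCAAT lay in 43.9% (33.0 to 55.3) of 82 windows with H3K4me3 and 39.7% (31.4 to 48.4) of 136 without it. CCAAT lay in 28.3% of 5224 H3K4me3 summits elsewhere without MBD2. It has fewer letters than the other motifs printed here, so its shares away from promoters were not ranked against theirs. CAGCTG lay in 29 of 82 windows with H3K4me3, 35.4% (25.1 to 46.7), and in 42 of 136 without it, 30.9% (23.2 to 39.4). It lay in 13.0% of promoter MBD2 windows with H3K4me3, and in 22.2% of H3K4me3 summits away from promoters without MBD2. TGANTCA lay in 15.9% (8.72 to 25.6) of windows elsewhere with H3K4me3, against 25% (17.98 to 33.1) of those without it, in 5.73% of promoter windows with H3K4me3, and in 13.5% of H3K4me3 summits elsewhere without MBD2. CATTCC, known for the TEAD factors, lay in 20.7% (12.6 to 31.1) with H3K4me3, against 33.1% (25.3 to 41.7) without it. It lay in 22.4% of promoter MBD2 windows with H3K4me3 and in 17.8% of H3K4me3 summits elsewhere without MBD2. For windows elsewhere with H3K4me3, the intervals for TGANTCA and CATTCC therefore include the shares at H3K4me3 summits without MBD2. For all 32619 RefSeq promoters, which have the same length, the shares were 37.6% for CCAAT, 16.4% for CAGCTG, 7.85% for TGANTCA and 14.6% for CATTCC. The intervals for CCAAT elsewhere, with and without H3K4me3, both include its RefSeq share. The Sp box GGGCGG lay in 60.9% of promoter MBD2 windows with H3K4me3, in 40.7% of promoter H3K4me3 summits without MBD2 and in 35.9% of RefSeq promoters. Among RefSeq promoters with H3K4me3, it lay in 72.2% (64.9 to 78.6) of those with MBD2, against 67.3% (66.4 to 68.1) without MBD2. These intervals overlap. Also searched were CACGTG of Myc and USF, CCGGAAG of ETS factors, AANATGGC of YY1, TGACGTCA of CREB, and the motifs of NRF1, ZNF143, Kaiso and MEF2, each of which lay in at most 7.32% of any of the 3 larger MBD2 classes. All were searched on both strands, matches of different motifs may overlap, and CCAAT is contained in none of the others. A match is a description of the letters and not a bound site.

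H3K4me3 peaks that held MBD2 had larger median widths and folds than those without. At promoters their median width was 3052 bp (199 peaks), against 2315 bp (12158 peaks) without MBD2, and their median fold 61.6, against 52.8. Elsewhere the widths were 840 bp (72 peaks), against 613 bp (5224 peaks). In 5 equal groups of promoter H3K4me3 peaks by width, from narrowest to widest, 0.485%, 0.728%, 1.42%, 2.27% and 3.16% held MBD2. A wider peak has more room for an MBD2 peak, and per Mb of H3K4me3 the same groups held 5.29, 4.05, 6.09, 7.62 and 6.71 H3K4me3 peaks with MBD2. Per base the range was therefore smaller than per peak.

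Across 20 gene lists, 312 of 348 genes had H3K4me3 at day 1 and 18 had MBD2, all with H3K4me3. That is 5.77% of the list genes with H3K4me3, beside 1.74% of all genes with H3K4me3, and several list genes were included because earlier results of these data had named them, so the difference is no result. Among muscle genes, MBD2 lay at Mylpf, at Actn3, the α-actinin of fast fibres (13.2), and at Tcf3, which encodes the E-protein partners of MyoD (8.55). The summit at Actn3 lay at −595 bp from its start and at −168 bp from that of Zdhhc24, a palmitoyltransferase. These were 2 of 35 sarcomere genes and 1 of 16 myogenic regulators. Among chromatin genes it lay at Sin3a, the demethylase Kdm4a (16.1) and the acetyltransferase Kat7 (8.36), and among genes of RNA processing at Cnot3 (21.7) and Cnot1 (12.7), subunits of the CCR4-NOT deadenylase, and Hnrnpa1 (8.36), a splicing regulator. The summit at Hnrnpa1 lay at −851 bp from its start and 235 bp from that of Cbx5, the heterochromatin protein HP1α. That at Aurka lay at −220 bp, and 21 bp from Cstf1, a polyadenylation factor. These neighbouring genes were named after the values were seen. Mitochondrial genes gave Tomm40 and the carrier Slc25a25 (23.3), and cytoskeletal genes Srgap2, Tubb4b and Pfn1 (8.23), the actin monomer binder. The others were Cdca2 (26.4) and the mitotic kinase Aurka (4.49) for the cell cycle, the Wnt receptor Fzd2 (5.24) and the imprinted locus Inpp5f (4.62). None lay at the 16 methyl-CpG reader, DNMT and TET genes, the 18 ribosomal protein and translation genes, the 18 housekeeping genes, or at the lists for fusion, cell cycle exit, Notch, AP-1 and immediate early, germline, stem cell and matrix genes. Of Mbd2, Myod1, Myog, Pax7, Ckm, Gapdh, Actb and Mylpf, each had H3K4me3 at day 1, between 1282 bp at Ckm and 15768 bp at Pax7, and Mylpf alone had MBD2.

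In every state most promoter MBD2 peaks lay on H3K4me3, while the share elsewhere differed more. At promoters it was 83.1% (81.7 to 84.5) at day 0, 92.8% at day 1, 98.5% (94.7 to 99.8) in the myotubes of day 5 and 97.4% (86.5 to 99.9) in its reserve cells. Elsewhere it was 24.7% (24.0 to 25.5) at day 0, 37.6% at day 1, 60.2% (51.1 to 68.7) in the myotubes of day 5 and 40% (22.7 to 59.4) in its reserve cells. The lists differ in length, with 14919, 425, 261 and 69 peaks in this order. Among the 69 peaks of highest fold in each list, a comparison added after the data were seen, 81.2%, 88.4%, 78.3% and 72.5% overlapped H3K4me3.

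**Figure D5:**
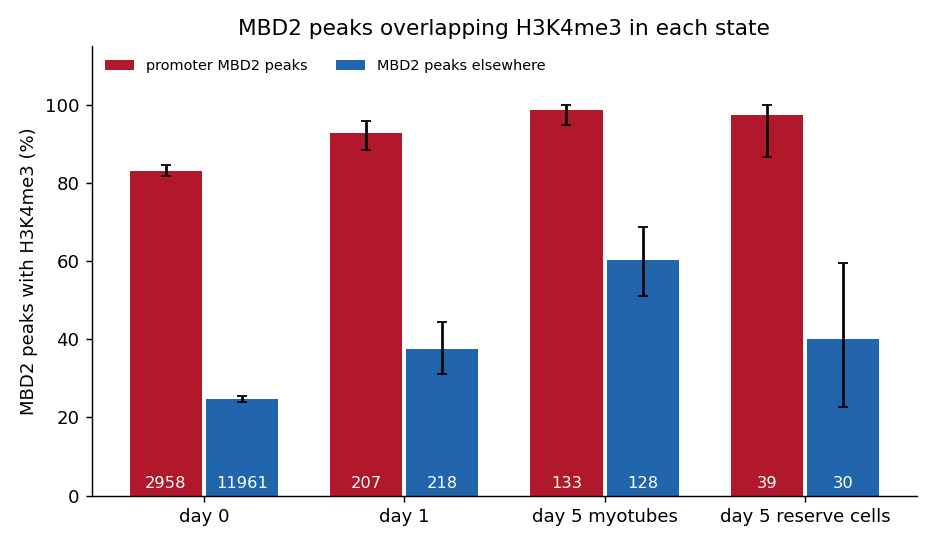
Share of MBD2 peaks that overlap an H3K4me3 peak of the same state, at promoters and elsewhere; bars are shares, whiskers are exact 95% intervals for counting error, and the number of MBD2 peaks stands in each bar. Promoter shares lie between 83.1% and 98.5%, and shares elsewhere between 24.7% and 60.2%.

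The sites themselves were mostly shared with day 0. Of the 425 day 1 peaks, 391, 92.0%, overlapped an MBD2 peak at day 0, 49 one in myotubes and 37 one in reserve cells. Of the 19 that did so in all 3 other lists, 18 had H3K4me3 at day 1 and 16 lay at promoters. Each fold is against its own library's background, so values are set side by side and not compared as levels. The peak at Mylpf had MBD2 folds of 96.0 at day 0, 43.4 at day 1 and 9.25 in reserve cells, and none was called in myotubes. Its H3K4me3 peak covered 4503 bp at day 0, 8248 bp at day 1, and at day 5 10708 bp in the myotubes but 3522 bp in the reserve cells. The peak at Slc25a42 was called in all 4 lists, with 49.997, 27.2, 8.42 and 6.10, while H3K4me3 there covered 2275, 2112, 2627 and 1953 bp. At Sp2 MBD2 had 93.4 at day 0, 34.2 at day 1 and 6.68 in reserve cells, with none called in myotubes, where H3K4me3 still covered 3610 bp.

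At promoters with H3K4me3 and elsewhere without it, motif shares differed between day 0 sites still called at day 1 and those not. Among day 0 promoter MBD2 peaks with H3K4me3, 75.3% of the 190 overlapped at day 1 held CCAAT (68.5 to 81.2), against 49.6% of the 2269 not overlapped (47.5 to 51.7). The overlapped peaks were stronger at day 0, with a median fold of 20.2 against 5.88. Within the strongest 20% of day 0 peaks by fold the shares were 82.1% (75.1 to 87.7), against 73.5% (68.8 to 77.8), with intervals that overlap. Strength still differed there, with median folds of 24.3 against 11.5. Away from promoters and without H3K4me3, TGANTCA lay in 28.2% of the 103 day 0 peaks overlapped at day 1 (19.7 to 37.9), against 42.6% of the 8899 not overlapped (41.6 to 43.6). Within the strongest 20% of day 0 peaks by fold these shares were 22.7% (13.3 to 34.7), against 50.3% (47.7 to 52.9). Median folds there were 18.2 against 11.0. Away from promoters and with H3K4me3, TGANTCA lay in 28.0% (18.7 to 39.1) of all day 0 peaks overlapped at day 1. Its share was 33.3% (31.5 to 35.0) in those not overlapped, and these intervals overlap. Among peaks away from promoters and without H3K4me3 in the MBD2 lists themselves, TGANTCA lay in 42.4% at day 0 and 25% at day 1. At day 5 it lay in 5.88% of those of myotubes and, over 18 peaks, in 11.1% of those of reserve cells.

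H3K4me3 at MBD2 sites was mostly the same call in every state. Of the 274 MBD2 sites with H3K4me3 at day 1, 228 had it in all 4 lists, 183 of them promoters. The like share of all day 1 H3K4me3 peaks is not given here, so this count does not set MBD2 sites apart. At 15 it was called at day 1 and not at day 0. At 1 of these, between Rnu12 and Poldip3, H3K4me3 covered 2556 bp at day 1, with 2583 bp in the reserve cells, while none was called at day 0 or in myotubes. Conversely, 41 of the 151 sites without H3K4me3 at day 1 had it in another list, namely 20 in the day 0 list, 26 in that of myotubes, and 4 in that of reserve cells, some in more than 1. The H3K4me3 lists differ in length, at 19206 peaks for day 0, 17653 for day 1, 26024 for myotubes, and 15910 for reserve cells. At 18 of the 41 sites it was called in myotubes and neither at day 0 nor at day 1. These included the Rcan2 start, with an H3K4me3 peak of 1323 bp in myotubes, an intron of Nrp2, a semaphorin coreceptor (998 bp), and an intron of Lgals3, galectin-3 (850 bp), the last named after their values were seen. At the other 110 sites no list had H3K4me3.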

How the data were processed

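CUT&RUN libraries of C2C12 cells, 1 per antibody and state, were analysed from 8 deposited peak lists, and IgG was left out. Trim Galore, Bowtie2, SAMtools and MACS2 were run on mm10, per the submitters' processing notes. Versions, settings, the peak-calling control and read totals: not given in the sources used here. A list comes from 1 library. Its deposited pileup, a signal, counts fragments at the summit. Its deposited fold enrichment is a ratio of signal to local background, per the file headers. The background formula above reads it as (pileup + 1)/(background + 1). At the lowest MBD2 background the added 1 exceeds the background, so the folds lie below the plain ratio. The deposited −log10 p-value column and, beside it, that of the −log10 q-value have damaged names, and their position in the usual MACS2 output named them. All are the authors' values and were used to describe, rank and filter peaks inside each list. There were 0 unused columns of per-sample values. The lowest local background at day 1, 0.286 (MBD2) and 1.25 (H3K4me3) fragments per base, stands for depth.

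Peaks overlapped when they shared at least 1 bp. Promoters reach 1 kb either side of any transcript start in the GENCODE M21 basic annotation. Windows of 300 bp at the summit were read from GRCm38.p6, and promoter sequences are RefSeq's for that build. Shares carry exact Clopper-Pearson 95% intervals, and with 1 library per group no test was run. The members, gene lists, motifs and comparisons were chosen with earlier results of these data known. Named genes are the 10 promoter genes of highest MBD2 fold with and without H3K4me3, the 5 strongest peaks of each kind elsewhere, up to 4 genes per list and 8 reference genes. Predicted models were passed over except to place a peak, and any other gene was picked with its values in view. The overlap code was checked on simulated intervals. Tools were Python 3.11.15, pandas 2.3.3, numpy 2.4.6, scipy 1.17.1, pysam 0.24.0 and matplotlib 3.10.9. Alternatives changed the background limit, overlap, promoter window, peak thresholds, chromosomes and sequence window.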

Additional observations from a re-analysis of the deposited data

Results flagged for a closer look

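The day 1 MBD2 list held peaks outside the comparisons above. On chromosomes 1 to 19 and X, 27 peaks lay over the background limit, 10 of them on chromosome 9, and 3 overlapped H3K4me3. Their median fold was 2.64, and the highest pileup among them was 31647 fragments at a fold of 2.31. A further 18 peaks lay off these chromosomes, 8 on the mitochondrial chromosome and 10 on other scaffolds.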

How the results depend on the processing

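Alternatives gave 65 values of 23 results, of which 49 stayed inside the interval of the reported value or, for gene counts, within 1.5 times of it. The share of MBD2 peaks with H3K4me3 was 72.8% among the 50% of MBD2 peaks with the highest −log10 q, 43.3% with the 50% of H3K4me3 peaks with the highest −log10 q, and 88.4% for the 69 peaks of highest fold, a setting chosen after seeing the data. The promoter share of MBD2 peaks was 41.6% with protein-coding starts alone. The share of promoter MBD2 peaks with H3K4me3 was 87.4% with no background limit and 83.6% with the stronger 50% of H3K4me3 peaks, of which 2.07% held MBD2. The median distance between summits was 624 bp with H3K4me3 peaks of at least 1 kb, against 506.5 bp over all pairs, at promoters and elsewhere together. With promoter H3K4me3 peaks alone, the medians were 3052 bp and fold 61.6 with MBD2, against 2315 bp and 52.8 without. Genes without H3K4me3 at the peak numbered 17, against 10 with a 500 bp window and 34 with no background limit. Day 1 peaks overlapping day 0 MBD2 were 88.9% when at least 50% of the peak had to be covered, and 15.5% overlapped myotube MBD2 with the stronger 50% of each list. The causes were not tested. No paired analysis was possible because each antibody and state has 1 library. Short lists of few fragments limit every MBD2 share, and a site without a call may hold signal under the threshold.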
